A study of Mus musculus with 16 samples.

Results

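The 7 genes described here encode the urea cycle: the 6 enzymes Nags, Cps1, Otc, Ass1, Asl and Arg1, and the mitochondrial ornithine carrier Slc25a15. They were taken by symbol, for the known part that liver plays in arginine handling, and are 7 of the 40324 genes in the table of counts. All 7 were among the 14476 genes with enough counts to be tested. Their expression was compared between livers of 2 groups of db/db mice, a strain that lacks a working leptin receptor and becomes obese and diabetic. The control group of 8 mice had been injected with AAV8, an adeno-associated virus that reaches hepatocytes efficiently, carrying GFP, and the other 8 mice with AAV8 carrying arcA. All were littermates injected at about 5 weeks of age, and liver was taken 5 weeks later, at 10 weeks. Both groups carried the db/db genotype and a vector, so neither a lean nor an uninjected liver was part of the comparison. The labels state neither what arcA encodes, nor the promoter of the vectors, nor the sex of the mice.

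The urea cycle turns toxic ammonia, released when amino acids are broken down, into urea that the kidney excretes. It begins inside liver mitochondria, where carbamoyl phosphate is made from ammonia and joined to ornithine, and ends in the cytosol, where arginine is formed and then split into urea and ornithine. The complete pathway is a mark of hepatocytes, most of all those around the portal vein, and its genes are induced together by glucagon, glucocorticoids and a protein-rich supply of amino acids.

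Each library held between 28912563 and 53520828 counts, and the 7 genes had between 1991 and 227630 counts in a library. Counting error was at most 2.24% if each count is independent. Markers of the labelled tissue were abundant. The 17 hepatocyte markers together reached 96262 to 126484 CPM (counts scaled to a common library size with TMM factors) in every liver, and Alb, the albumin gene, 53163 to 77715. Over all genes tested, 1568 differed between the groups at an adjusted p below 0.05 with edgeR's quasi-likelihood test, which is 10.8%. Of these, 617 (4.26%) were higher and 951 (6.57%) lower in arcA livers. Lymphocyte markers were far lower in arcA livers: all 10 tested markers of T and natural killer cells and all 6 of B and plasma cells fell. Some of them passed the filter only through the GFP group, such as Cd8a, with 26 to 175 counts in GFP and 0 to 4 in arcA livers. The filter therefore favoured a fall among the tested markers, whereas the sums that follow take all 11 and 8 listed markers, tested or not. The summed level of the T and natural killer cell markers was 10.5 to 23.2 CPM in GFP livers and 0.704 to 3.3 in arcA livers, while B and plasma cell markers summed to 63.9 to 623 and 1.71 to 2.82. Among 13 macrophage markers 9 fell, and among 8 stellate cell markers 6 fell. Of 3 tested neutrophil markers 0 passed, and the list summed to 3.11 to 5.33 CPM in GFP and 1.86 to 16.1 in arcA livers. No marker of these 5 lists was at 0 in all livers of a group. In whole liver, fewer cells of a type and less RNA per cell cannot be told apart, and the part of these other cells in the values below was not tested. The labels give no sequencing batch. In 3 GFP libraries (2, 3 and 5) a single gene that overlaps ribosomal RNA sequence, Gm42418, took 11.8% to 19.4% of the counts, against 2.29% to 7.37% elsewhere.

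None of the 7 urea cycle genes passed the test between arcA and GFP livers, which 10.8% of all genes tested did. The estimates were small: 5 of 7 were above 0, the median log2 fold change was 0.17 beside 0.009 over all genes tested, and the 7 values ran from -0.14 for Arg1 to 0.23 for Otc. An unadjusted p under 0.05 was reached by 2 of the 7, Nags and Otc, where 24.9% of all genes tested reached it. DESeq2 also called 0 of 7 (14.1% of all genes). With limma voom and quality weights 1 of 7 was called, Nags (13.6% of all genes). In none of the 7 did the CPM of the groups separate, which they did in 1.76% of all genes. With 8 mice a group, p-values measure the spread between these mice.

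**Figure D1:**
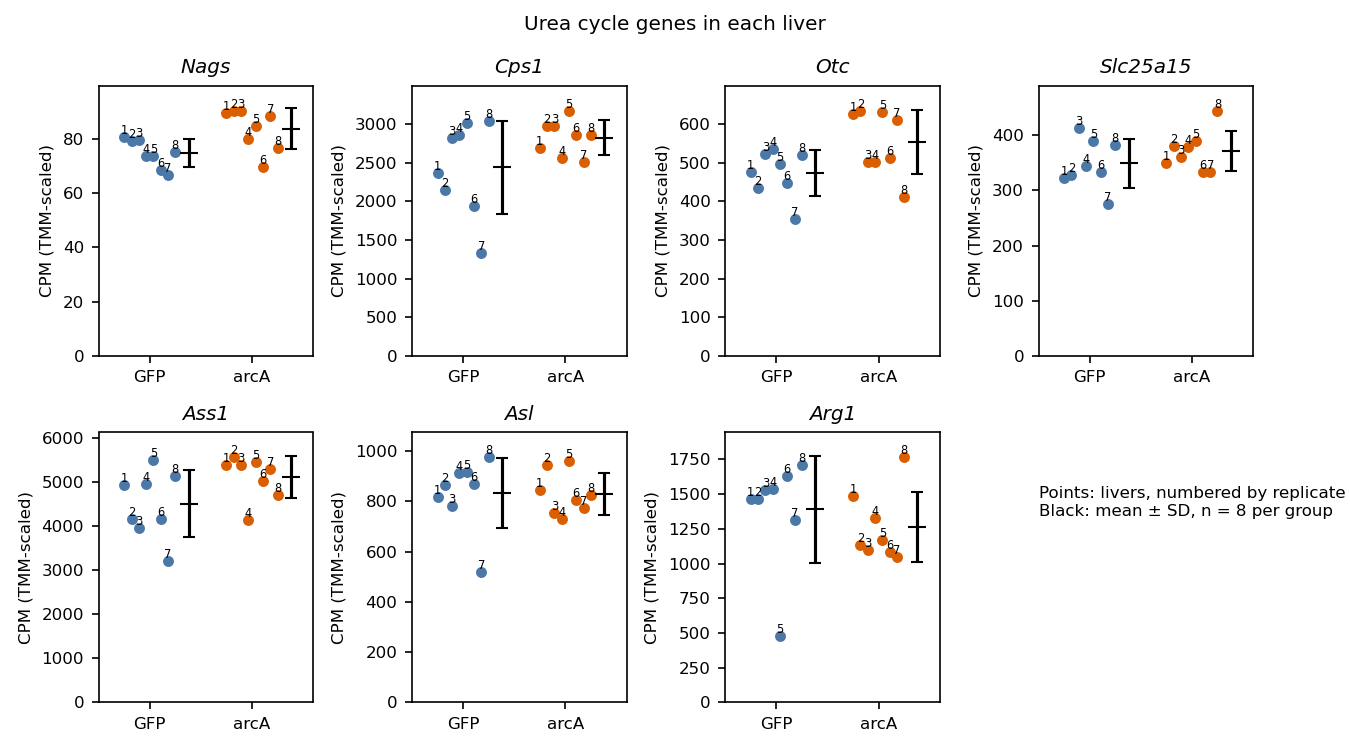
CPM of each urea cycle gene (TMM-scaled, axis from 0) in the 8 GFP and 8 arcA livers, 1 point per liver with its replicate number, and the mean ± SD beside each group. The groups overlap for all 7 genes. GFP 7 is the lowest GFP liver in 6 of them, and GFP 5 stands alone at 481 CPM for Arg1.

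The cycle starts with Nags, N-acetylglutamate synthase, which makes the allosteric activator without which carbamoyl phosphate synthase does not work. The gene lies at chr11:102145513-102149477 on the plus strand of GRCm38. The stretch upstream of its start site is shown here beside that of Otc, because these are the 2 members with the smallest p-values and their promoters differ strongly in base composition. Both are the 250 bases before the RefSeq start site (GRCm38.p6), 5′ to 3′, and capitals mark matches to the motifs searched.

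Nags, chr11:102145263-102145512, plus strand: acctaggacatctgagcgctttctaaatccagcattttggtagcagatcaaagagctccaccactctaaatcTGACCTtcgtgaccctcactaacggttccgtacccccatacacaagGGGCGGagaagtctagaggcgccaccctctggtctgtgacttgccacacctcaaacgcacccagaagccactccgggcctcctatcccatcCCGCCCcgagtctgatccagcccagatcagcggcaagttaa

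Otc, chrX:10252055-10252304, plus strand: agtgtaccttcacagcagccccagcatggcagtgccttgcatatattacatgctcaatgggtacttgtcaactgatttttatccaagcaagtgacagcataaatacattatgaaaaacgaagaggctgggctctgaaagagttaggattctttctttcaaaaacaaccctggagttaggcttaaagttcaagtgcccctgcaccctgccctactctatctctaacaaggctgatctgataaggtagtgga

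Motifs were sought on both strands over 250 bases before and 50 after the start. The core promoter motifs were TATAAA, which recruits the basal machinery, then CCAAT, which binds NF-Y, and then GGGCGG, the Sp1 motif. The motifs of liver and hormone regulators were TGACG for cyclic AMP response factors, TTGCNNAA for C/EBP factors, AGGTCA for nuclear receptors and CAAAGTCCA for HNF4. These windows of 300 bases held them in 13.6%, 37.4%, 35.7%, 20.8%, 10.8%, 16.3% and 0.475% of 32851 RefSeq promoters, in that order. The Nags window held 2 Sp1 motifs, 132 and 41 bases before the start, and a nuclear receptor motif on the minus strand, 178 bases before it. A cyclic AMP response motif lay 31 bases after the start, and no matches overlapped. No motif matched in the Otc window, which says only that these letters are not in these bases. The Otc window had 44.3% G and C and 1 CpG, and the Nags window 57.7% and 14, where the medians over all promoters were 52.7% and 7. The table also held Ass1 (74.0% G and C, 27 CpG and 1 Sp1 motif) and 2 start sites of Slc25a15 (60.7% and 79.0%). Cps1, Asl and Arg1 were not in it.

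Nags was measured at 66.7 CPM in the lowest, 74.3 in the median and 80.8 in the highest GFP liver, and at 69.6, 86.5 and 90.4 CPM in arcA livers. Of the arcA livers, 7 of 8 were above the GFP median and 5 above every GFP liver, while arcA 6, the lowest, lay near the bottom of the GFP range. The log2 fold change was 0.17 (SE 0.0591, 95% interval 0.042 to 0.29), or 1.12-fold, with an unadjusted p of 0.0112 and an adjusted p of 0.0793 (edgeR). It passed with limma voom (0.18, adjusted p = 0.0318) and without arcA 6 (0.19, adjusted p = 0.0319). That was the only 1 of the 16 edgeR fits without 1 library in which Nags passed. In the others its adjusted p was up to 0.171 (without arcA 2). An exact two-sided permutation test over the 16 livers gave p = 0.0199 for Nags alone, not adjusted over genes. Nags shares 443 exonic bases with the antisense gene Gm11586. Reads of the 2 genes cannot be told apart without the strand setting of the counting, but Gm11586 was given only 84 counts in the GFP and 87 in the arcA group, against 23387 and 27376 for Nags.

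Cps1, carbamoyl phosphate synthetase, fixes ammonia into carbamoyl phosphate in the matrix and is among the most abundant proteins of liver mitochondria. Cps1 is at chr1:67123026-67231259 on the plus strand. Its level was 1338 CPM in the lowest, 2592 in the median and 3036 in the highest GFP liver, and 2514, 2859 and 3175 CPM in arcA livers. The arcA livers lay close together in the upper part of the GFP range, 1 of them (arcA 5) above it, with a coefficient of variation of 8% against 24.8% in GFP livers. The log2 fold change was 0.21 (SE 0.131, 95% interval -0.062 to 0.48, adjusted p = 0.343), and 6 of 8 arcA livers were above the GFP median. Without GFP 7, the liver at 1338 CPM, the estimate was 0.12 (adjusted p = 0.511).

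Otc, ornithine transcarbamylase, joins carbamoyl phosphate to ornithine to give citrulline, and its X-linked loss is the most frequent inherited defect of the cycle. It is found at chrX:10252305-10321024 on the plus strand. Otc had 355, 485 and 535 CPM in the lowest, median and highest GFP liver and 412, 561 and 635 in arcA livers. The arcA livers fell into a higher set of 4 (arcA 1, 2, 5 and 7, at 611 to 635 CPM), above every GFP liver, and 4 within the GFP range. The log2 fold change was 0.23 (SE 0.0961, 95% interval 0.026 to 0.43), the largest of the 7, with an unadjusted p of 0.0286 and an adjusted p of 0.142. It passed when arcA 8, the lowest arcA liver, was left out (0.28, adjusted p = 0.0431), and without arcA 3 and 8 (0.30, adjusted p = 0.0341). Of the 16 edgeR fits without 1 library, only the 1 without arcA 8 called Otc. In the others its adjusted p was up to 0.27 (without arcA 2). The exact permutation p was 0.0541.

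Slc25a15, also called ORC1, is the carrier that brings ornithine into the mitochondrion in exchange for citrulline and so links the mitochondrial with the cytosolic steps. Its locus is chr8:22375551-22398597 on the minus strand. It was at 276, 340 and 414 CPM in the lowest, median and highest GFP liver and at 333, 369 and 445 in arcA livers, so the ranges overlapped over most of their width. The log2 fold change of 0.086 (SE 0.0787, 95% interval -0.078 to 0.25, adjusted p = 0.55) was within the spread between livers.

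In the cytosol, Ass1, argininosuccinate synthase, condenses citrulline with aspartate, which carries the other nitrogen of urea. The gene lies at chr2:31470207-31520672 on the plus strand. Its level was 3223 CPM in the lowest, 4562 in the median and 5517 in the highest GFP liver, and 4150, 5344 and 5576 CPM in arcA livers. Of the arcA livers 7 of 8 lay above the GFP median but only 1 above all GFP livers. The log2 fold change was 0.18 (SE 0.0985, 95% interval -0.022 to 0.39, adjusted p = 0.261), and the exact permutation p was 0.0744.

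Asl, argininosuccinate lyase, splits argininosuccinate into arginine and fumarate. The locus of Asl is chr5:130011258-130029247 on the minus strand. It had 521, 867 and 977 CPM in the lowest, median and highest GFP liver and 730, 815 and 962 in arcA livers. Its arcA livers all lay inside the GFP range, 2 of 8 above the GFP median. The log2 fold change was -0.005 (SE 0.1, 95% interval -0.21 to 0.20, adjusted p = 0.982). Without GFP 7, the liver at 521 CPM, it was -0.0805.

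Arg1, the liver arginase, hydrolyses arginine to urea and ornithine and closes the cycle. Arg1 is at chr10:24915221-24927484 on the minus strand. Its level was 481 CPM in the lowest, 1498 in the median and 1707 in the highest GFP liver, and 1050, 1151 and 1767 CPM in arcA livers. Outside GFP 5, the GFP livers lay at 1316 to 1707 CPM. Of the arcA livers 7 of 8 were below the GFP median, and arcA 8 was the highest of all 16. Over all 16 livers the log2 fold change was -0.14 (SE 0.195, 95% interval -0.55 to 0.27, adjusted p = 0.727). Without GFP 5, it was -0.28 (adjusted p = 0.106), and without GFP 5 and GFP 7 -0.31 (adjusted p = 0.0887), so that the size of the estimate rests on 1 liver while the call does not change.

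**Figure D2:**
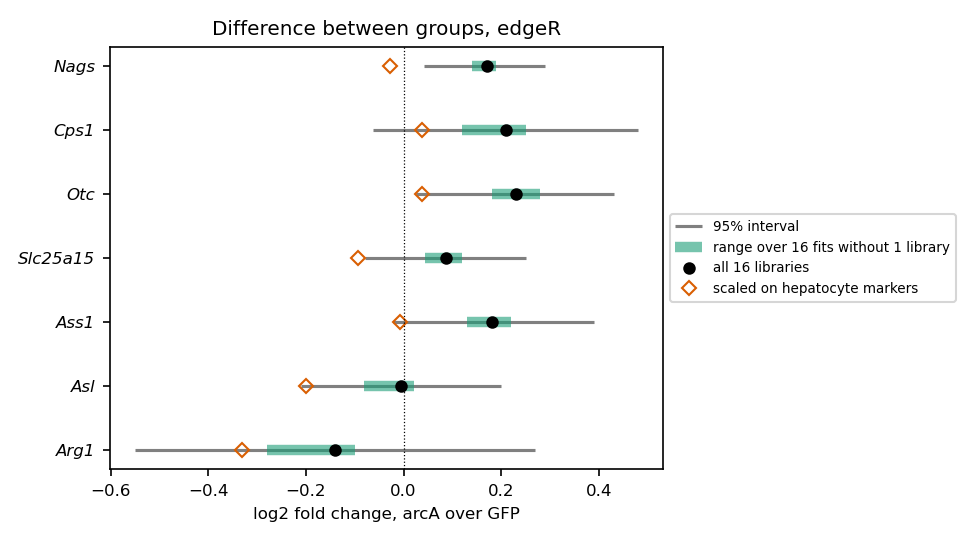
Log2 fold change (arcA over GFP) of each urea cycle gene from edgeR with its 95% interval, the range over the 16 fits that leave out 1 library, and the estimate after scaling on hepatocyte markers. Only the intervals of Nags and Otc lie above 0 with all 16 libraries; scaling on hepatocyte markers moves all 7 genes down, and Nags, Slc25a15 and Ass1 to the other side of 0.

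Scaling on hepatocyte markers changed the sign of the small estimates of Nags, Slc25a15 and Ass1. The other scalings tried kept the sign of all 7. Of the hepatocyte markers, 15 of 17 had estimates above 0, with a median log2 fold change of 0.21. Of the 17, 4 rose and 0 fell (4.26% and 6.57% of all genes tested). When the libraries were scaled on these markers, the median of all genes tested moved from 0.009 to -0.19. On that scale Cps1 stood at 0.0385, Otc at 0.0376, Ass1 at -0.00637, Nags at -0.0277, Slc25a15 at -0.094, Asl at -0.20 and Arg1 at -0.33, and none of the 7 was called. With 5 surrogate variables in the fit the estimates were nearer to 0 for 6 of them, Cps1 at 0.0177, Ass1 at 0.0386, Otc at 0.12, Nags at 0.15, Slc25a15 at 0.0335 and Arg1 at -0.0387, while Asl stood at -0.12, again with none called. The same 5 of the 7, all but Asl and Arg1, lay above the median of all genes with TMM and with hepatocyte marker scaling. A change of scaling moves all genes by nearly the same amount, so this position could hardly change and is no separate support.

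The lowest values of the control group mostly came from a single liver. GFP 7 had the lowest level of its group for 6 of the 7 genes, all but Arg1. Together the 7 genes made up 0.71% of its scaled counts, against 0.948% to 1.18% in the other GFP livers and 0.972% to 1.19% in arcA livers. By Dixon's criterion, the gap to the next liver over the range of the group, this sum was not an outlier (0.501, critical value 0.526), and of the 6 genes only Asl was (0.575). Among GFP livers, GFP 7 also had the highest summed markers of T and natural killer cells (23.2 CPM), of B and plasma cells (623 CPM), of macrophages (417 CPM) and of stellate cells (314 CPM). It had the lowest sum of the periportal hepatocyte markers, 4108 CPM beside a GFP median of 6216, and of the pericentral ones, 8164 beside 10777. The part of these other cells in the low values of GFP 7 was not tested. Its hepatocyte markers as a whole, at 96315 CPM, were close to those of GFP 1 and GFP 6 (96380 and 96262). Without GFP 7 the estimate of every member moved down, to 0.14 for Nags, 0.18 for Otc, 0.13 for Ass1, 0.0433 for Slc25a15 and -0.15 for Arg1, besides the values given for Cps1 and Asl.

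GFP 5 differed from the others in a single step of the cycle. Arg1 was at 481 CPM there, while the same liver had the highest Ass1 and the second highest Cps1 and Asl of the GFP group, at 5517, 3019 and 916 CPM. The log2 ratio of Ass1 to Arg1 was therefore 3.52 in GFP 5, where the mean over the 8 GFP livers was 1.76 and no arcA liver exceeded 2.34. GFP 5 is also the library with the largest share of Gm42418, 19.4% of its counts, and the part of that in its Arg1 value was not tested. GFP 3, with a share of 18.1%, had Arg1 at 1529 CPM.

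**Figure D3:**
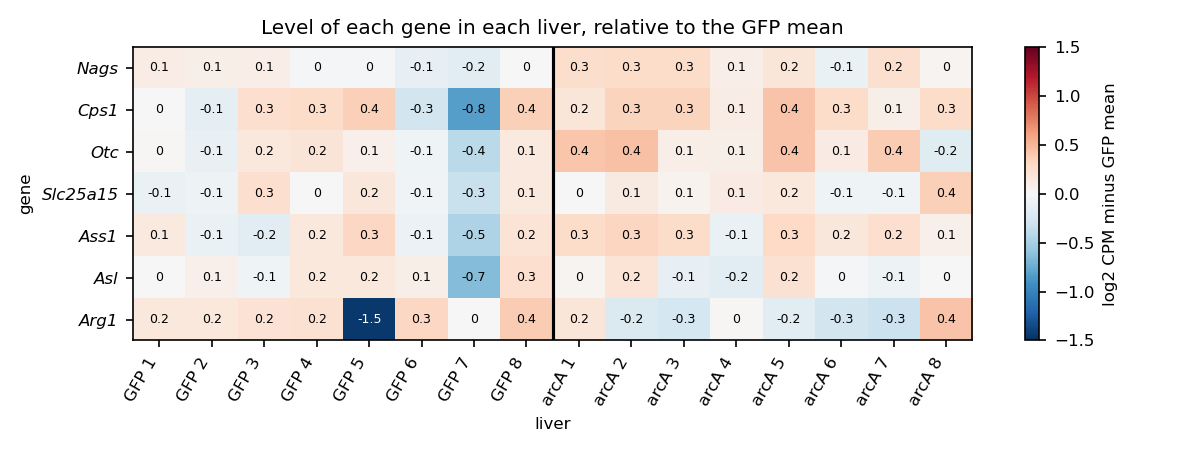
Log2 CPM of each urea cycle gene in each liver minus the mean of the GFP livers, with rows for genes, columns for livers and the value in each cell. GFP 7 is low in 6 of 7 rows and GFP 5 in the Arg1 row alone; no arcA column is low throughout.

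The spread between livers also differed from gene to gene. The SD of log2 CPM was 0.60 for Arg1 in GFP livers and 0.26 in arcA livers, and its spread within groups was larger than that of 95.3% of the 1283 genes with a mean of at least 100 CPM. Without GFP 5 and GFP 7 the SD of Arg1 in GFP livers was 0.09, below that of the arcA livers. Cps1 had an SD of 0.41 in GFP and 0.12 in arcA livers, Ass1 of 0.25 and 0.14, and Asl of 0.28 and 0.14. These GFP values became 0.26, 0.16 and 0.11 without GFP 5 and GFP 7. With all livers the SD was larger among GFP than among arcA livers in 5 of the 7 genes, which rests for Arg1 and Asl on those 2 livers. Whether the groups differ in spread was not tested.

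Levels of different genes can be compared roughly per kilobase of exon, here with the exons of all annotated transcripts of a gene merged. This length can exceed that of the transcript expressed, so the order of genes with near levels is not settled. Ass1 was the highest at 1870 ± 313 CPM per kilobase in GFP and 2124 ± 200 in arcA livers (SD, n = 8 each), rank 33 among the 14476 genes tested. Arg1 followed with 624 ± 173 and 567 ± 112, and Cps1 with 439 ± 109 and 509 ± 40.7. Those 2 did not differ beyond their spread, since Arg1 was above Cps1 in 7 of 8 GFP but only 4 of 8 arcA livers. Asl (172 ± 28.9 and 172 ± 17.6) and Otc (112 ± 14.1 and 131 ± 19.6) overlapped in range across livers, yet Asl was above Otc in all 16. The ornithine carrier Slc25a15 had 62.1 ± 7.85 and 65.9 ± 6.49. Nags was last with 26.3 ± 1.82 and 29.5 ± 2.68, at rank 1398. By this measure the mRNA of the enzyme that makes the activator was the lowest and that of argininosuccinate synthase the highest in every liver.

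**Figure D4:**
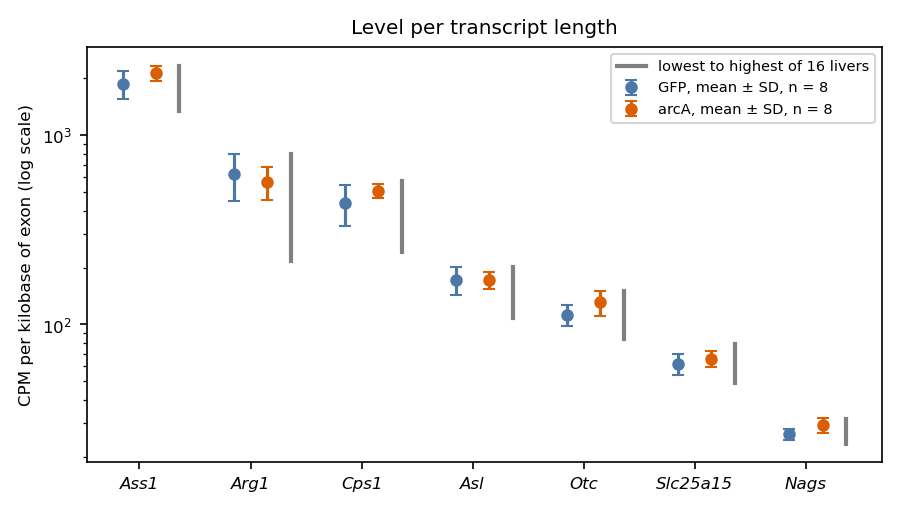
Level of each urea cycle gene in CPM per kilobase of exon on a log axis, as mean ± SD of 8 GFP and 8 arcA livers, with the range over all 16 livers as a grey bar. The order runs from Ass1 to Nags, and Arg1 and Cps1 overlap.

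Ratios between 2 members measured in the same liver do not depend on the scaling of the libraries. Over the 21 pairs of members the log2 ratios overlapped between the groups in all 21. The fewest livers, 7 of 16, lay in the overlap for Ass1 over Asl, the consecutive enzymes that make arginine. That ratio was 2.44 ± 0.15 in GFP and 2.63 ± 0.13 in arcA livers (SD, n = 8 each), with ranges of 2.27 to 2.63 and 2.51 to 2.84. Cps1 over Asl was next with 9 livers in the overlap, together with Slc25a15 over Arg1, and its mean was 1.53 ± 0.23 in GFP and 1.77 ± 0.11 in arcA livers. These ratios were picked for their small overlap after their values were seen and have no test.

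Within the GFP group most pairs of members were positively correlated. The median was lower once 2 livers extreme in 1 gene of each pair were left out. Over 21 pairs the Pearson correlation of log2 CPM across the 8 GFP livers had a median of 0.57, and 16 of the 21 were positive. Over the 8 arcA livers the median was 0.20, with 13 positive. By Pearson r the closest pair was Cps1 with Otc in GFP livers, the consecutive mitochondrial steps, at r = 0.96 and rho = 0.79 (exact permutation p = 0.00141 and 0.0279, adjusted p = 0.0594 and 0.241 over 42 pairs). Without GFP 7 and GFP 6, the 2 livers farthest from the median of Cps1, r was 0.87. In arcA livers the same pair had r = 0.05 and rho = 0.33. By rho the closest were Ass1 with Asl in GFP and Otc with Ass1 in arcA livers, both at 0.90 (exact permutation, adjusted p = 0.0958). No pair passed after adjustment over the 42, while 8 GFP pairs and 1 arcA pair had an unadjusted exact permutation p under 0.05. For each pair, the 2 livers farthest from the median of its first gene, in the order of the list, were then left out. The median r was 0.26 in GFP and also 0.26 in arcA livers. Leaving out the extremes of 1 gene narrows its range and can lower r by itself, so what the GFP correlations rest on was not settled. All points of a pair share their libraries, and the difference in correlation between the groups was not tested.

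For each member the genes most like it across the 16 livers were found after each group's mean was subtracted. Among 6920 genes with a mean of at least 10 CPM, the 3 with the highest Pearson r were Fgf1 (0.91), Nrbp2 (0.91) and Aass (0.89) for Cps1, where Aass encodes the first enzyme of lysine breakdown. For Fgf1 and Aass the likeness to Cps1 was mostly that of GFP livers. Fgf1 had an r of 0.96 in GFP and 0.37 in arcA livers, and Aass 0.99 and 0.40. Nrbp2 had 0.92 in GFP and 0.80 in arcA livers. For Otc the 3 genes were Gmppb (0.95), Apoh (0.92) and Gcdh (0.91). For Ass1 they were Uroc1 (0.90), Nars (0.83) and Ahcy (0.83), and for Asl Ahcy (0.91), Afmid (0.85) and Gls2 (0.85). Ahcy, which hydrolyses S-adenosylhomocysteine, was near both enzymes of argininosuccinate. Arg1 was most like Aktip (0.91), Suco (0.83) and Abraxas2 (0.82), Nags most like Lmo4 (0.85), Ncbp2 (0.85) and Hexim1 (0.83), and Slc25a15 most like Serpina3m (0.87), Nnmt (0.87) and Tedc2 (0.85). The 7 sets shared no gene but Ahcy. These are the highest of many values and have no p.

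Beside the cycle itself, the genes that feed it were examined in lists. Ammonia and aspartate are delivered by glutaminase, glutamate dehydrogenase, the transaminases and amino acid carriers, and bicarbonate by mitochondrial carbonic anhydrase. Of 13 tested genes of this kind 2 rose and 0 fell (4.26% and 6.57% of all genes tested), at a median log2 fold change of 0.097. Car5a, the mitochondrial carbonic anhydrase whose bicarbonate Cps1 uses, ran from 46.2 to 76.2 CPM in GFP and from 65.4 to 82 in arcA livers. All 8 arcA livers were above its GFP median, although 5 were within the GFP range. Car5a rose (log2 fold change 0.26, SE 0.0797, adjusted p = 0.0381), and so did Slc38a4, a carrier for neutral amino acids (0.26, SE 0.0776, adjusted p = 0.0327, 692 to 968 CPM in GFP and 862 to 1099 in arcA livers). Neither call is firm: leaving out 1 library ended that of Car5a in 11 and that of Slc38a4 in 7 of 16 fits, with adjusted p up to 0.0926 and 0.0874 and log2 fold changes of 0.21 to 0.31 and 0.22 to 0.29. Both calls also ended with surrogate variables, at 0.16 for each, and with scaling on hepatocyte markers, at 0.0751 for Car5a and 0.0809 for Slc38a4. Gls2, the liver glutaminase that releases ammonia from glutamine, had 0.27 (adjusted p = 0.0564), with all 8 arcA livers above the GFP median. DESeq2 and limma voom did call Gls2: each called 3 of the 13 genes, Car5a, Gls2 and Slc38a4 (14.1% and 13.6% of all genes). With edgeR, Gls2 passed in 2 of the 16 fits without 1 library. It was not called with surrogate variables, at 0.14, or with scaling on hepatocyte markers, at 0.0892. Slc25a13, citrin, which exports the aspartate that Ass1 uses, had 0.097 (adjusted p = 0.35).

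None of the 6 tested genes that return the fumarate released by Asl to aspartate passed with edgeR, DESeq2 or limma voom, at a median of 0.048. These tools called 10.8%, 14.1% and 13.6% of all genes, so with 6 genes a count of 0 is near that share. An unadjusted p under 0.05 with edgeR was reached by 0 of 6, beside 24.9% of all genes tested. The largest estimates were 0.11 for Mdh1, cytosolic malate dehydrogenase (adjusted p = 0.24), and 0.10 for Fh1, fumarate hydratase (adjusted p = 0.454). For urea, water and ammonium channels only Aqp9 and Aqp8 had enough counts. Aqp9, a channel of hepatocytes for urea and glycerol, had 0.10 (adjusted p = 0.212) and Aqp8 0.064 (adjusted p = 0.892).

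Second isoforms and competing uses of the same metabolites gave 0 of 6 tested genes past the threshold with edgeR, DESeq2 or limma voom. That is near the 10.8%, 14.1% and 13.6% of all genes that these tools called. The median was -0.018, and 2 of 6 had an unadjusted p under 0.05 with edgeR, as did 24.9% of all genes tested. Oat, which turns ornithine to glutamate in pericentral hepatocytes, ran from 1128 to 2357 CPM in GFP and from 1835 to 2660 in arcA livers, and its log2 fold change was 0.31 (adjusted p = 0.161, SE 0.135). Cad, which makes cytosolic carbamoyl phosphate for pyrimidines, had -0.24 (adjusted p = 0.187). The mitochondrial arginase Arg2 was below the filter, with 33 counts in the 8 GFP and 19 in the 8 arcA livers. So was Slc25a2, a further ornithine carrier, with 21 and 23 counts. Nos2, the inducible nitric oxide synthase that uses arginine in activated macrophages, had 46 counts in GFP livers, 2 to 10 in each, and 2 counts in arcA livers, both in arcA 3. The ratio of arcA to GFP was 0.042 (exact 95% interval 0.00493 to 0.16, counting error only), and every arcA liver was below every GFP liver in CPM. That interval takes each count as independent and is too narrow if both mates of a fragment were counted. Nos2 was below the filter and not tested, the fit with no filter called it lower, and it was singled out after its values were seen. The macrophage markers were also lower in arcA livers, summing to 271 to 417 CPM in GFP and 112 to 375 in arcA livers, and their part in the Nos2 counts was not tested.

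Of 15 transcription factors, coactivators, receptors and deacylases known to act on urea cycle genes or enzymes, 0 passed with edgeR (10.8% of all genes tested). Their median was 0.13, and 11 were above 0. An unadjusted p under 0.05 was reached by 7 of the 15 (24.9% of all genes tested). DESeq2 called 1 of them, Insr, and limma voom 0, where they called 14.1% and 13.6% of all genes. Insr, the insulin receptor, had 0.17 (adjusted p = 0.0557), Crtc2, the coactivator of CREB that glucagon switches on, 0.19 (adjusted p = 0.0723), and Gcgr, the glucagon receptor, 0.15 (adjusted p = 0.0944). Hnf4a had 0.15 (adjusted p = 0.221) and Cebpa 0.13 (adjusted p = 0.183), both central regulators of hepatocyte genes, and Cebpb had -0.094 (adjusted p = 0.8).

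**Figure D5:**
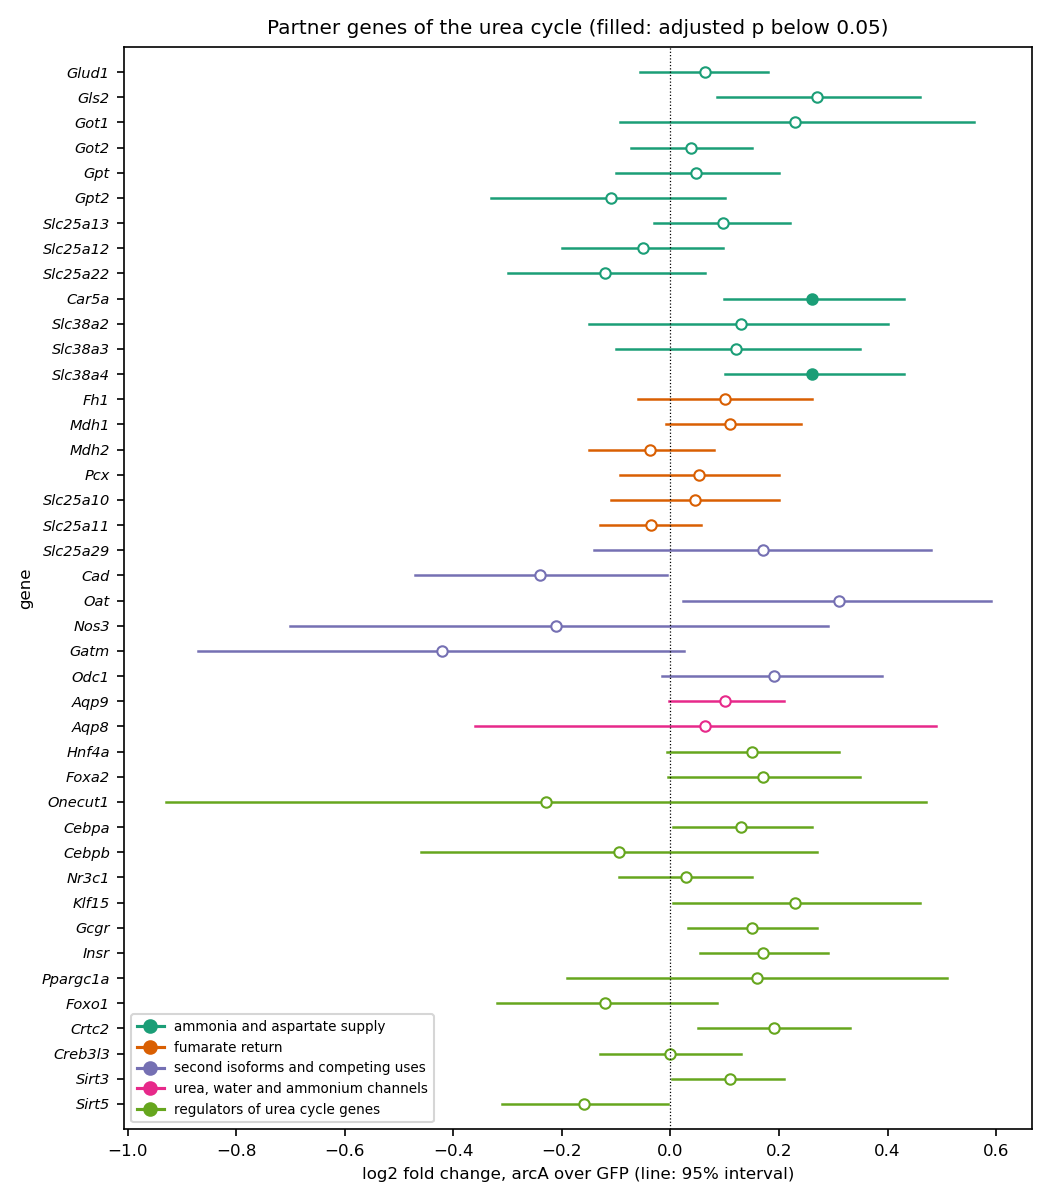
Log2 fold change (arcA over GFP) with 95% interval of the tested partner genes of the urea cycle, coloured by list; filled points passed the threshold of an adjusted p below 0.05. The 2 filled points are Car5a and Slc38a4, both at 0.26.

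The urea cycle is strongest around the portal vein, while ammonia that escapes it is captured as glutamine around the central vein. Of 12 periportal markers 1 rose and 0 fell, at a median of 0.095, and of 13 pericentral markers 1 rose and 0 fell, at a median of 0.19, where 4.26% of all genes tested rose and 6.57% fell. Igfals, which encodes part of the circulating complex of insulin-like growth factors, rose by 0.60 (adjusted p = 0.0114), and Cyp2e1, a pericentral cytochrome P450, by 0.37 (adjusted p = 0.00897). Glul, the pericentral glutamine synthetase, had -0.19 (SE 0.111, adjusted p = 0.319), with 7 of 8 arcA livers below the GFP median.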

How the data were processed

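Liver RNA was prepared with Trizol and oligo-dT, per the labels' protocols. What the authors deposited are read counts for each symbol, not normalized; bcl2fastq, STAR 2.5.1a, Subread and featureCounts 1.4.6-p5 on build GRCm38 are named in the submitters' processing notes. The sources used here give no annotation release, strand setting or rule for counting mates. Among counts from 1 to 20, 69.8% were even, so counts may not be independent and the counting errors given here may be too small. Of 40757 lines, 348 exact copies were removed and 85 repeats of a symbol were summed. The interval of the Nos2 ratio came from counts pooled over livers, so it covers counting error only and not the spread between livers. No molecular identifiers were used, so it may also be too narrow if a molecule was counted more than once. Coordinates and exon lengths came from GENCODE M21 by symbol, which need not be the annotation the authors counted on. Promoters came from RefSeq GRCm38.p6.

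Group membership follows the labels. Genes were tested with edgeR 4.0.16 (R 4.3.3; filterByExpr, TMM scaling, robust quasi-likelihood fit, group as the only term) on all 16 libraries, two-sided, with Benjamini-Hochberg adjustment over the 14476 genes tested and a threshold of 0.05. Every adjusted p is from edgeR unless another tool is named. Log2 CPM used a prior count of 2. Alternatives were other scalings, filters of no genes or of 1 CPM in 8 libraries, DESeq2 1.42.0, limma 3.58.1 voom with quality weights, a replicate block, sva 3.50.0 with 5 surrogate variables, and libraries left out; leaving out GFP 5 and 7 was added after seeing the data. Calculations were tested on simulated data.

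The members and lists were chosen with earlier results of these data known. Named were the 7 members, up to 4 genes with the smallest p of each pathway list, Glul, Oat, Slc25a13, Arg2, Hnf4a, Cebpa and Cebpb whatever their p, up to 2 of each cell list, and the 3 genes most like each member. Alb, Slc25a2, Nos2, Gm42418 and Gm11586 were named outside this rule, after their values were seen; not every gene the rule takes is reported here.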

Additional observations from a re-analysis of the deposited data

Results flagged for a closer look

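Arg1 in GFP 5, at 481 CPM, lay far from the other 7 GFP livers, at 1316 to 1707 CPM: its gap to the nearest exceeded Dixon's 95% critical value for the range of the group. Asl in GFP 7, at 521 CPM, stood apart in the same way from GFP livers at 783 to 977 CPM. Chance flags about 1 in 20 groups.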

How the results depend on the processing

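Of the 7 members, 1 was called with limma voom and 1 without arcA 3 and 8, 0 to 1 with 1 library left out, and 0 under the other alternatives. Genes called higher over the whole table numbered 253 with library size alone, 77 with scaling on hepatocyte markers, 407 with the filter of 1 CPM, 369 without GFP 2, 3 and 5, 228 without GFP 5 and 7, and 389 (without GFP 2) to 638 with 1 library left out. Genes called lower numbered 3597 with scaling on hepatocyte markers. Pathway partners called, 2 in the report, were 1 with upper-quartile scaling, 0 with library size alone, 7 with scaling on hepatocyte markers, 4 with no filter, 0 with the filter of 1 CPM, 4 with DESeq2, 1 without GFP 2, 3 and 5, 0 without GFP 5 and 7, and 0 to 3 with 1 library left out.

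Nags had a log2 fold change of -0.0277 with scaling on hepatocyte markers, 0.18 with limma voom, 0.16 in the permutation test, and 0.14 to 0.19 with 1 library left out. Scaling on hepatocyte markers gave -0.094 for Slc25a15 and -0.00637 for Ass1. Otc had 0.30 without arcA 3 and 8 and 0.18 to 0.28 with 1 library left out. Asl, at -0.005, changed sign to 0.00941 without GFP 2, 3 and 5, 0.0133 without arcA 3 and 8 and 0.0102 in the permutation test, and ranged from -0.0805 to 0.0206 with 1 library left out. Surrogate variables moved Cps1 to 0.0177, Ass1 to 0.0386, Otc to 0.12, Slc25a15 to 0.0335, Arg1 to -0.0387 and Asl to -0.12. For these changes the cause was not tested.

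No pairing of livers by replicate number was seen: same-numbered livers correlated at -0.05 to 0.13 over 2000 genes, 2 of 8 over 0.1. Of the 8 arcA livers, 1 was most like the GFP liver of its own number. What the numbers stand for was not tested. With the replicate block 592 genes were called higher and 876 lower, 0 of the 7 members and 1 pathway partner were called, and Asl stood at 0.00962.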
